A study of Mus musculus with 8 samples.

Results

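Short autosomal regions carrying trimethylated lysine 27 of histone H3 (H3K27me3) in every library of a set of mouse neural stem cell lines are described here. Peaks of chromosomes 1 to 19 from 4 deposited peak lists were merged where they overlapped or touched, and a merged region was kept when it was under 10000 bp long and held a peak from all 4 lists. This gave 5790 regions, 12.4% of the 46591 merged autosomal regions and part of 59771 merged regions in all. The regions were thus chosen by their measured length and their presence in the 4 libraries, so both are given below as description only. The percent of a region's length under peaks is tied to both, which limits what its tests below can show.

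H3K27me3 is written by Polycomb repressive complex 2, whose catalytic subunit is Ezh2 or Ezh1, and is read by the Cbx proteins of canonical Polycomb repressive complex 1. The mark is known for covering broad domains over homeobox and other developmental regulator genes, and for narrower stretches at CpG-rich starts of genes that a cell type keeps silent. In neural stem cells, genes of mature neurons are among its known targets.

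The cells were female neural stem cell lines made from E14.5 embryos of a mixed C57BL/6, 129 and Castaneus background. In both groups 1 Smchd1 allele was already deleted, the maternal X was of 129 origin with the Xist deltaA allele, and the paternal X was Castaneus. Smchd1 encodes a chromatin protein with a role in silencing of the inactive X. The del/del group had also lost its floxed allele through the MSCV-Cre-puro retrovirus, with puromycin from 24 hours and harvest at 7 days after transduction. The del/fl group was the part of each line left without virus and without selection, so deletion and transduction cannot be told apart. Each group had 2 H3K27me3 libraries, each with its own whole-cell extract as control. The labels do not say whether libraries came from separate embryos, nor which libraries share a line, so the spread between libraries may be technical.

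The promoters of 6 genes that lie inside such regions are given as examples and do not span the range of sequence found there. Each line holds the 250 bases before the gene's start, 5′ to 3′ on the gene's strand, with every CG dinucleotide in capitals, from the RefSeq promoter table of GRCm38.p6. Utf1 (chr7:139943606-139943855, plus strand), Wnt3 (chr11:103773925-103774174, plus strand), Grm6 (chr11:50850435-50850684, plus strand) and Sfrp5 (chr19:42202253-42202502, minus strand) were chosen for high H3K27me3 signal among the gene-list members named by rule. They were not the highest of these members. Grin1 and Kcnk9 had higher signal than all 4, and Dscaml1 had higher signal than Grm6 and Sfrp5. Hba-a1 (chr11:32283422-32283671, plus strand) and Gfi1b (chr2:28621983-28622232, minus strand) were chosen for few CG dinucleotides.
Utf1: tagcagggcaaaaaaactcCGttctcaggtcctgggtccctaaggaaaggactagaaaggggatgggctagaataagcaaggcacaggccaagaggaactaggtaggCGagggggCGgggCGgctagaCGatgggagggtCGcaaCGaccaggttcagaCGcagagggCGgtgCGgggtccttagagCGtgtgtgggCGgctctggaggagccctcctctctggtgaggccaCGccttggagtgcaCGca
Wnt3: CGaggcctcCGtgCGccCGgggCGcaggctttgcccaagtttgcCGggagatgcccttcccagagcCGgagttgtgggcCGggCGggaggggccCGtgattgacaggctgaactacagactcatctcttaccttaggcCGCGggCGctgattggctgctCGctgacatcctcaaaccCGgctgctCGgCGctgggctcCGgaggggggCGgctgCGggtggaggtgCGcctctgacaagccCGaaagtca
Grm6: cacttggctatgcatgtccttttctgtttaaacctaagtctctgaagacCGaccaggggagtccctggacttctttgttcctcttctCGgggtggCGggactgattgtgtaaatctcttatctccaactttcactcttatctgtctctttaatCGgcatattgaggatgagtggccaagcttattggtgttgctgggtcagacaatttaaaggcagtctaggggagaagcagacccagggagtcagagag
Sfrp5: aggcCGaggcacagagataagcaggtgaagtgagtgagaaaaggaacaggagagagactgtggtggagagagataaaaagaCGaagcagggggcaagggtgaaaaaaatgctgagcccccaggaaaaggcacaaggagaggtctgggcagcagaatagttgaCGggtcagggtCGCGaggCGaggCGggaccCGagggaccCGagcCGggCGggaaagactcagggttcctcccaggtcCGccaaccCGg
Hba-a1: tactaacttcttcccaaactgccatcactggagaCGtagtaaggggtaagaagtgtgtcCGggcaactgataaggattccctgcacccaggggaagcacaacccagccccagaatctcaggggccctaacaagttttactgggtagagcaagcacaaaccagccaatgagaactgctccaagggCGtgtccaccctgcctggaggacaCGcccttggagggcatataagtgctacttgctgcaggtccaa
Gfi1b: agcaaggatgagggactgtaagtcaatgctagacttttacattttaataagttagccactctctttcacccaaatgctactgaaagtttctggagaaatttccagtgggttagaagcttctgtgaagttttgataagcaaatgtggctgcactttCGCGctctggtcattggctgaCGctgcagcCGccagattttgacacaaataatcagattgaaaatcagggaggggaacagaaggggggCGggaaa
The stretch before Wnt3, a Wnt ligand, held 22 CG dinucleotides and 68.0% G and C. The stretch before Grm6, the metabotropic glutamate receptor of retinal bipolar cells, held 4 and 47.6%, although its region had a similar signal: its per-million pileup, the height of stacked tags divided by the library's tags and multiplied by 1000000, was 1.70 on average against 1.91 at Wnt3. Utf1, a pluripotency gene, had 14 and Sfrp5, a secreted Wnt inhibitor, 13. Hba-a1, an alpha-globin gene with a near-identical copy whose reads cannot be told from its own with certainty, had 4, and Gfi1b, a blood cell transcription factor, had 5.

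The regions summed to 23.7 Mb. Their median length was 3589.5 bp, with 25% at or under 2454 bp and 25% at or over 5386.5 bp, and the full range ran from 243 to 9998 bp. The number of regions per 1 kb of length peaked between 2 and 3 kb, with 1315 regions. Of all merged autosomal regions under 1 kb, 0.288% held a peak from every library, against 11.1% between 1 and 2 kb, 49.3% between 2 and 3 kb and 91.7% between 4 and 5 kb. A merged region is the union of its peaks, so a region with peaks in more libraries is longer by construction. Only 1 autosomal region of 10000 bp or more lacked a peak in some library, and 855 had one in all 4.

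**Figure D1:**
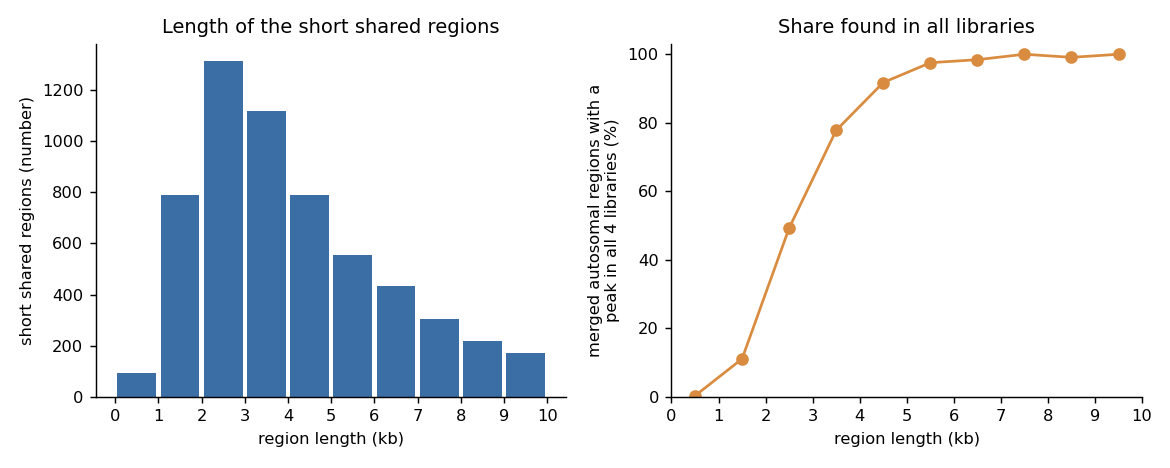
The left panel shows how many short shared regions fall in each 1 kb of length; the right panel shows the percent of all merged autosomal regions of that length that held a peak in all 4 libraries. Counts peak at 1315 between 2 and 3 kb, and the shared percent climbs from 0.288% under 1 kb to 91.7% between 4 and 5 kb.

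Pileup, the height of stacked tags that the peak caller gave each peak, was averaged over the peaks of a region with their lengths as weights. It is a height and does not grow with length. Where 4 values are given below, those of the del/del libraries 1 and 2 come first and those of the del/fl libraries 1 and 2 second, joined by the word against. The median over the short shared regions was 7.65 and 6.80 against 7.71 and 6.91 tags. The lowest pileup in any list was 6 tags in library 1 of each genotype and 5 tags in library 2 of each, and 27.8% and 22.3% against 25.7% and 19.03% of the regions lay within 1 tag of that floor. The median region lay within 2 tags of the floor in every library. In chromatin from bulk cells, marking in fewer cells and a lower level per cell cannot be told apart. The shared autosomal regions of 10000 bp or more had medians of 12.6 and 11.6 against 12.6 and 11.97 tags, and in each library the mean log2 pileup of the short regions minus theirs was between −0.75 and −0.69. Median fold enrichment over the local background was 3.47 and 3.24 against 3.58 and 3.44, and ran from 5.20 to 5.63 in the long regions.

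The 10000 bp limit cut through a continuous range. Just inside it lay chr9:89881638-89891635 (9998 bp, between genes), chr11:103767754-103777731 (9978 bp, over Wnt3 and Wnt9b) and chr9:40956529-40966503 (9975 bp, at Jhy). Just outside lay chr19:24995286-25005285 at Dock8 (10000 bp), chr2:31309863-31319866 at Hmcn2 (10004 bp) and chr18:80360101-80370109 at Kcng2 (10009 bp). The pileup of the first inside was 11.1 and 10.9 against 11.4 and 11.3 tags, and that of the Dock8 region was 12.5 and 9.46 against 12.8 and 11.6.

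Signal and size moved together within the set, except among the shortest regions and those with the highest signal. The 2385 regions with a mean pileup under 7 tags had a median length of 2850 bp, and 8.30% of them held a gene start. The 558 regions between 10 and 15 tags had a median length of 5818.5 bp and held a gene start in 41.6% of cases, and the 240 regions between 15 and 50 tags 6632.5 bp and 49.6%. The 21 regions of 50 tags or more had a median length of 525 bp, and 0% held a gene start. Regions under 1 kb had a median per-million pileup of 0.621, against 0.516 between 1 and 2 kb. A longer region has more room for a gene start, which this description does not separate from signal.

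Libraries ranked the regions more alike by extent than by height, while Pearson's r was higher for height. Over the 5790 regions, log2 pileup scaled to depth correlated between pairs of libraries with Pearson's r of 0.898 to 0.923 and Spearman's rho of 0.640 to 0.712. These are descriptions across regions, in lists that share the floor of the peak caller. They include 21 regions with a mean of 50 tags or more, and r was not computed without those. The base pairs under a peak correlated with r of 0.652 to 0.710, taken on log2, and rho of 0.722 to 0.786. Base pairs are bounded by the merged length, which these same lists set and the rule limits. Height is not bounded in this way, so the 2 measures are unlike. For each pair, the bases under a peak in both were 55.3% to 60.5% of those under a peak in either, the highest between del/del library 2 and del/fl library 2. Matching outer edges of the peaks differed by a median of 413 to 475 bp. A peak of all 4 libraries covered 8.35 Mb, or 35.3% of the regions' length, and 3215 regions (55.5%) were a single peak in every library.

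How much of the regions a library covered varied more within each genotype than the genotype means differed. Peaks covered 57.4% and 69.9% against 63.9% and 77.0% of the summed length. Library 2 of each genotype, the one with fewer tags and the lower floor, covered more. The del/del mean was 63.6% ± 8.83 and the del/fl mean 70.5% ± 9.29 (SD, n = 2 each), a difference of −6.86 points with an exact two-sided permutation p of 0.667, where 2 against 2 libraries cannot give less than 0.333. The difference was −13.1 points without del/del library 2 and −13.4 without del/fl library 1, but −0.617 without del/del library 1 and −0.296 without del/fl library 2.

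Relative to genes, the short shared regions stood between the broad domains and the regions that not all libraries shared. Of them, 2617 (45.2%, 95% Wilson interval 43.9% to 46.5%, counting error only) lay within 2500 bp of an annotated end of a protein-coding or lncRNA gene. Such windows made up 10.9% of the autosomal span, counted by single bases. A region counted when any part of it reached a window, so longer regions reach one more often and the 2 measures are unlike. The Wilson interval takes regions as independent, though 910 of 5771 gaps between them were under 3000 bp. With a library left out the share was 41.9% to 43.1%, outside that interval. The share of regions near a gene end was 68.5% in the long shared regions and 27.4%, 21.0% and 15.3% in short regions found in 3, 2 and 1 libraries. A gene start lay inside 1028 of the regions (17.8%), against 46.1% of the long ones and 4.53% of the short ones found in 3 libraries. A further 219 held a 3′ end and no start, 410 an end whose strand the tables do not give, 1891 (32.7%) lay inside a gene with no end in them, and 2242 (38.7%) lay between genes. Exons and introns were not separated, since no exon annotation was used here.

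Within matched lengths the same order held against the short regions found in 3 libraries. Between 2 and 3 kb, 13.5% of the regions with a peak in all 4 libraries held a gene start against 4.89%, between 3 and 4 kb 15.7% against 5.70%, and between 4 and 6 kb 21.4% against 5.80%. Under 1 kb the order was the other way, 1.09% of 92 regions against 2.20% of 363. Regions holding a gene start were longer (median 4589 bp) and higher (per-million pileup 0.643) than those between genes (3315.5 bp and 0.535), and a library covered a median of 74.1% of each against 58.8%. The median distance from a region to the nearest gene end was 3751 bp, and 239 lay over 100 kb away. The farthest, chr16:54201612-54203636, lay 1020490 bp from one and had 7.78 and 6.99 against 7.64 and 5.14 tags.

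**Figure D2:**
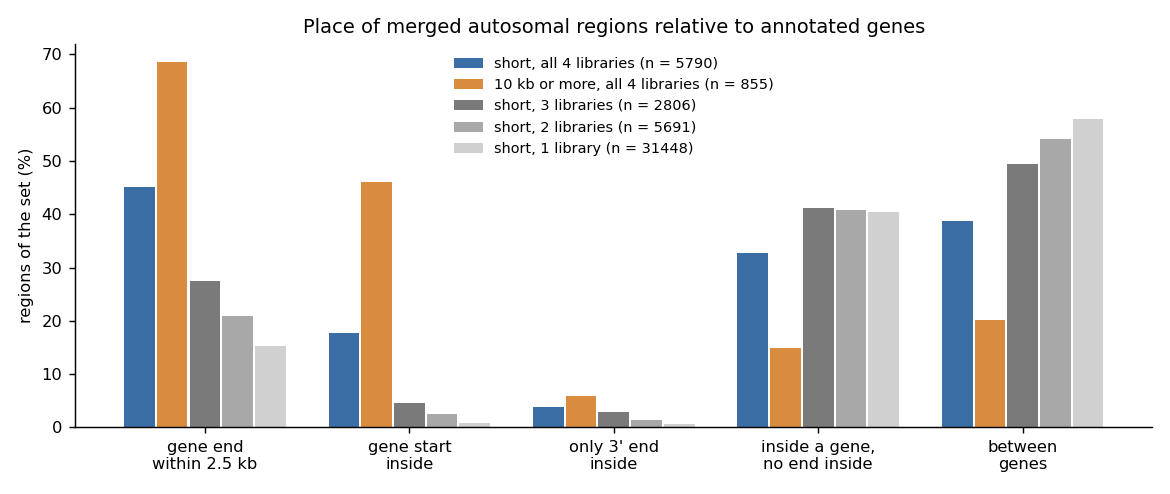
Bars show the percent of the regions of each set that lie within 2.5 kb of a gene end, hold a gene start, hold only a 3′ end, lie inside a gene with no end inside, or lie between genes; the first class overlaps the others. The short shared regions (45.2% near a gene end, 17.8% holding a start) fall between the long shared regions (68.5% and 46.1%) and the short regions of 3, 2 or 1 libraries.

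Scaled to depth, mean autosomal H3K27me3 pileup was lower in both del/del libraries than in both del/fl libraries, in the short as in the long shared regions. The mean log2 of per-million pileup over the short shared regions was −0.76 and −0.80 against −0.67 and −0.64, or −0.78 ± 0.02 against −0.65 ± 0.02 (SD, n = 2 each). The difference of −0.13 had an exact two-sided permutation p of 0.333, the smallest possible. It was −0.07 in log2 fold enrichment (exact permutation p of 0.333) and −0.03 on pileup as deposited (exact permutation p of 0.667). The groups did not overlap at 2562 regions with del/del lower (44.2%) and at 269 with del/del higher (4.65%), beside 45.8% and 4.74% of all 6645 shared autosomal regions. The median difference was −0.13 in the short regions, −0.12 in the long ones and 0.15 in the 4140 shared regions of the X, and the share of a library that falls on the X enters its tag total. After subtraction of the mean of the long shared autosomal regions, the difference in mean log2 pileup was −0.01 (exact permutation p of 1).

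Differences below are therefore also given centred, after subtracting each library's median over the shared autosomal regions. This shifted the median difference over all 10790 shared regions from −0.03 to 0.09 and that of the short shared regions to −0.01. On this scale the groups did not overlap at 977 short shared regions with del/del higher (16.9%) and at 1165 with del/del lower (20.1%), beside 17.1% and 20.1% of all shared autosomal regions. The X regions gave 84.0% and 0.700%. The middle 90% of centred differences ran from −0.25 to 0.25, and 33 of the 5790 regions (0.570%) lay beyond 0.5 in size.

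**Figure D3:**
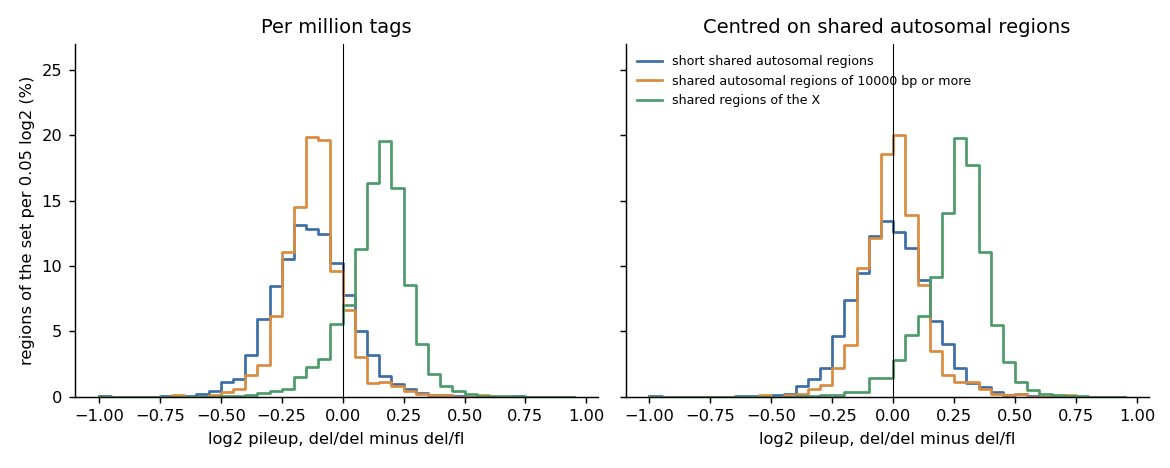
Lines show the percent of regions per 0.05 of log2 pileup difference (del/del mean minus del/fl mean), with differences beyond 1 placed in the last bin, for short shared autosomal regions, long shared autosomal regions and shared X regions; the left panel is on the per-million scale and the right panel centred on the shared autosomal regions. The short and the long autosomal regions lie on top of each other (per-million medians of −0.13 and −0.12), and the X regions lie to their right (0.15).

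No single short shared region passed limma at an adjusted p of 0.05 on the per-million scale, with 0 higher and 0 lower of 5790, beside 0% called over all 10790 shared regions tested. At an unadjusted p under 0.05, 56 were higher and 1079 lower in del/del, beside 1.05% and 18.6% of all shared autosomal regions and 13.4% and 11.7% of all shared regions. Centred, limma called 56 higher and 60 lower, beside 1.05% in each direction over all shared autosomal regions and 14.4% higher and 0.649% lower over all shared regions. On pileup as deposited the counts were 28 and 21 (0.484% and 0.363%), beside 0.512% and 0.346% of all shared autosomal regions. In a fit of autosomes alone they were 3 and 11 (0.0518% and 0.190%), beside 0.0602% and 0.181%. Among the 819 with at least 10 tags on average they were 8 and 79 (0.977% and 9.65%), beside 0.584% and 6.72% of the 1369 shared autosomal regions at that level. The count of calls thus depended on the scaling and on which regions entered the fit.

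Among regions where the groups did not overlap, 6 in each direction had the widest differences. Farthest up in del/del was chr16:5805334-5812112, between genes, with 10.3 and 11.4 against 6.28 and 5.36 tags. Its per-million log2 difference was 0.80 ± 0.11 (SE, limma adjusted p of 0.110), and it passed when centred (0.92, adjusted p of 0.0278). Next was chr5:119908716-119915912, also between genes, with 10.8 and 10.4 tags against 6.66 and 5.21 (0.74 ± 0.09, limma adjusted p of 0.110). Peaks covered 64.5% and 100% against 9.02% and 14.6% of it, so here extent and height differed together. The pair at chr14:53935155-53936318 and chr14:53929742-53930625, inside the lncRNA gene Gm30392, had 26.5 and 27.9 against 16.5 and 14.7 tags and 33.9 and 22.5 against 17.01 and 16. At both of these the local background under the peaks was also high in every library, 7.44 and 10.2 against 6.07 and 5.63 tags at the former. In fold enrichment, which divides by that background, their log2 differences were 0.23 and 0.16, against 0.70 and 0.64 in per-million pileup. The others were chr4:125504090-125504902 inside Grik3, a kainate receptor gene, with 11.8 and 10.7 against 6.84 and 7.36 tags, and chr1:74395974-74396430 inside the phosphatase gene Ctdsp1, with 15.98 and 13.8 against 8.50 and 11.8.

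In the other direction, 4 of the 6 were 312 to 328 bp long. At chr6:125876807-125877134 in Ano2, a chloride channel gene of sensory neurons, pileup was 19.9 and 10.8 against 39.1 and 47.6 tags (log2 −1.65 ± 0.25, SE, limma adjusted p of 0.1203). Those at chr17:56199887-56200198 in Dpp9, chr6:132463599-132463916 between genes and chr7:98059910-98060228 in Myo7a, the unconventional myosin of inner-ear hair cells, had log2 differences of −1.21, −1.15 and −0.91, the last of them −0.49 in fold enrichment. At chr17:4625321-4626698 in the lncRNA gene Gm34259 the libraries of each genotype differed widely from each other, with 42.9 and 15.02 against 73.0 and 125 tags (−2.01 ± 0.46, SE, limma adjusted p of 0.132). The sixth, chr19:25237281-25241343 in Kank1, was 4063 bp long and had 6.22 and 5.87 tags against 9.49 and 9.34 (−0.74 ± 0.09, SE, limma adjusted p of 0.110).

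The percent of each region covered by peaks gave 0 calls higher and 0 lower with limma, beside 0.0301% higher and 0.0134% lower over all 59771 merged regions tested. The rule gave each short shared region a cover above 0 in every library and limited the merged length that cover divides by. Of all merged autosomal regions, 31448 were short with a peak in 1 library and a cover of 0 elsewhere. The shares over all regions are therefore unlike those of the short shared regions. At an unadjusted p under 0.05, 159 of the short shared regions were higher (2.75%) and 408 lower (7.05%), beside 1.33% and 2.16% of all 46591 merged autosomal regions and 6.53% and 1.71% of all merged regions. The median difference was −7.33 points, but 0.0246 without del/fl library 2, with 2901 regions above and 2889 below 0. The fit of all 59771 merged regions had little power: on simulated data it found 0 of 50 regions changed by 80 points. Power at the short shared regions alone was not tested. With a library left out, 1 genotype holds a single library that is assumed to vary like the others, and the calls then moved over all regions. Without del/del library 1, 89 short shared regions were called higher and 77 lower (1.54% and 1.33%), beside 29.3% and 0.269% of all merged regions. Without del/del library 2 the counts were 39 and 125 (0.674% and 2.16%), beside 14.2% and 0.457%. Without del/fl library 1 they were 39 and 167 (0.674% and 2.88%), beside 0.955% and 22.7%, and without del/fl library 2 they were 0 and 0, beside 0.00167% and 0.637%. In cover the groups did not overlap at 604 regions with del/del higher (10.4%) and 1461 with del/del lower (25.2%), beside 10.8% and 25.9% of all shared autosomal regions. The widest with del/del higher was chr1:31226710-31233260, covered at 98.9% and 88.4% against 10.3% and 5.63%. The widest with del/del lower was chr2:151673925-151675638, covered at 11.2% and 20.5% against 90.5% and 100%. It was followed by chr16:72503013-72509228 inside Robo1, an axon guidance receptor gene, covered at 7.35% and 27.8% against 96.3% and 94.98%. Pileup was 8.31 and 6.43 against 6.60 and 5 tags at the region of chromosome 1 and 8.40 and 6.18 against 8.12 and 7.31 at that in Robo1.

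Receptor and channel genes of neurons were frequent at the short shared regions, while most listed developmental transcription factors and all 39 Hox genes lay at long ones. Of 33073 annotated autosomal protein-coding and lncRNA genes, 3077 (9.30%) had an end within 2500 bp of a short shared region, and 899 more had one near a long shared region and near no short one. Among neurotransmitter receptors these numbers were 51 and 3 of 87, and among ion channels 35 and 2 of 67. Among developmental transcription factors they were 16 and 71 of 91, and among Hox genes 0 and 39 of 39. These counts take either end of a gene. An annotated start lay inside a short shared region for 31 of the 87 receptors, 18 of the 67 channels and 3.44% of all genes. The lists were chosen with earlier results of these data known, and the counts are given without a test.

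**Figure D4:**
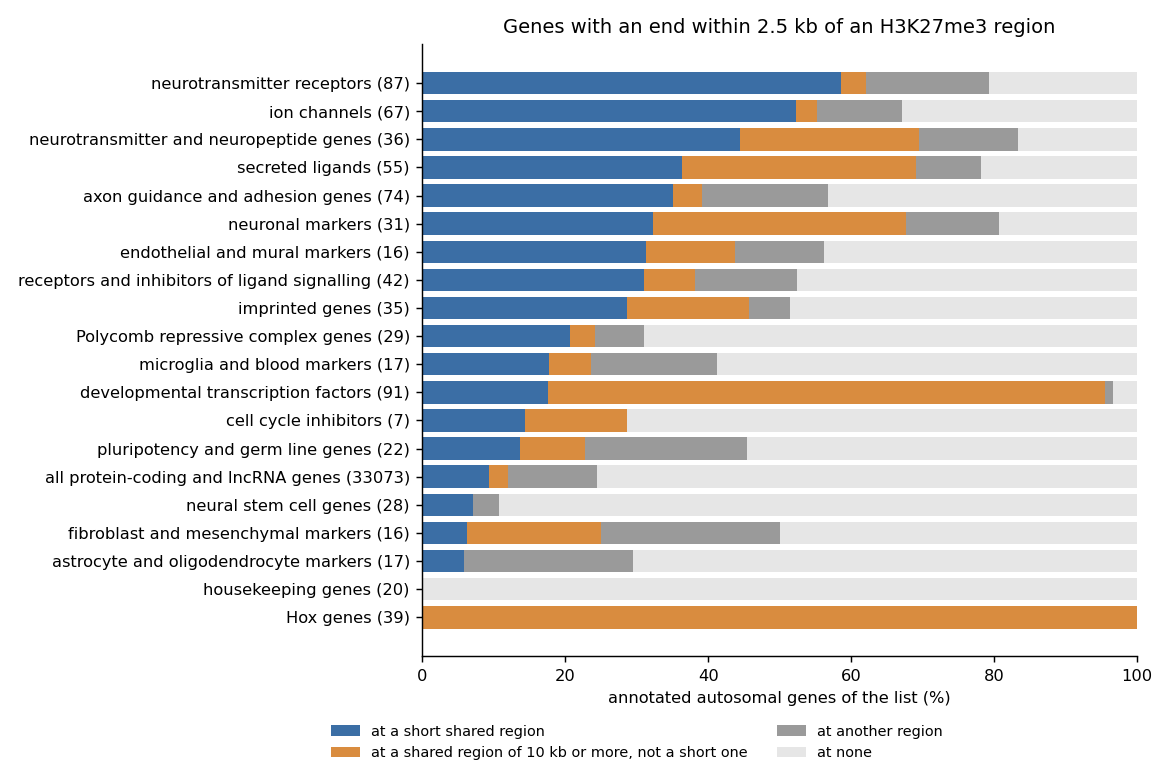
Each bar splits the annotated autosomal genes of a list (number in parentheses) by whether an end lies within 2.5 kb of a short shared region, of a long shared region and no short one, of another merged region, or of none. Neurotransmitter receptors (58.6%) and ion channels (52.2%) lie at short shared regions most often, Hox genes (100%) and developmental transcription factors at long ones, and the 20 housekeeping genes at none.

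Neurotransmitter receptors of every kind listed were found there. Short shared regions lay at 7 of 14 ionotropic and 6 of 8 metabotropic glutamate receptor genes, 8 of 9 GABA receptor genes, 5 of 11 acetylcholine, 6 of 9 adrenergic, 4 of 9 serotonin and 4 of 5 dopamine receptor genes, and 9 of 18 receptors of neuropeptides. In the same order, the gene's start lay inside one at 2, 3, 5, 5, 3, 4, 4 and 4 genes. The region at Grin1, the obligatory subunit of the NMDA receptor (chr2:25288006-25293035), had 31.2 and 28.1 against 27.8 and 28.4 tags, the highest of the list. It also lies over Grin1os, Lrrc26 and Tmem210. At Adra2a, the alpha-2A adrenergic receptor (chr19:54045039-54052744), the values were 22.3 and 22.8 against 21.8 and 20.7, and at Chrna3 and Chrnb4, neighbouring nicotinic subunits under 1 region (chr9:55023470-55028952), 23.6 and 19.1 against 21.1 and 21.2. On the per-million scale the groups overlapped at all of these 3 regions. Grm6 had 22.8 and 20.6 tags against 22.5 and 22.2, and there both del/del libraries lay below both del/fl libraries after scaling to depth. Lower signal was found at Htr1a, a serotonin receptor with 14.0 and 12.6 against 12.5 and 14.2 tags, and at Drd2, a dopamine receptor with 9.86 and 9.23 against 10.8 and 9.33. Over the 48 regions at receptors the median centred difference was −0.0047, with 24 above and 24 below 0, against −0.03 over the 2360 regions at all genes.

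Potassium channels made up most of the ion channels, with short shared regions at 26 of 43, beside 4 of 10 calcium channel, 2 of 7 sodium channel and 2 of 3 HCN pacemaker channel genes. Kcnk9, a two-pore potassium channel and an imprinted gene in brain (chr15:72543668-72549877), had 27.4 and 28.1 against 22.9 and 26.4 tags. Cacna1g, a T-type calcium channel (chr11:94471076-94474392), had 19.2 and 19.8 against 19.5 and 20.02. After scaling to depth the groups overlapped at both. Over the 35 regions the median centred difference was −0.01, with 15 above and 20 below 0.

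Genes that make, load or take up a transmitter were split between the 2 kinds of region, 16 of 36 at a short shared region and 9 at a long one and no short one. Those at short regions included the peptides Cck, Tac1, Penk, Sst and Gal, the vesicular glutamate transporter Slc17a7, the serotonin and dopamine transporters Slc6a4 and Slc6a3, and Th, the first enzyme of dopamine synthesis. Those at long ones included Gad1, Gad2 and Slc32a1 of GABA neurons and Chat and Slc18a3 of cholinergic neurons. The region at Tac1, the substance P precursor (chr6:7552341-7558395), had 17.7 and 16.8 against 21.3 and 19.2 tags, without overlap (per-million log2 −0.33 ± 0.09, SE, limma adjusted p of 0.133, centred −0.21). The region at Cck, cholecystokinin (chr9:121491088-121498288), had 19.6 and 17.4 against 19.9 and 18.99. Th had 6.91 and 6.46 against 7.06 and 5.88, close to the floor.

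Among axon guidance and adhesion genes, 26 of 74 had a short shared region and 3 a long one and no short one. Dscaml1, a neuronal adhesion molecule of the immunoglobulin family (chr9:45428799-45433270), had 23.5 and 22.1 against 20.2 and 24.0 tags. Cdh1, the epithelial cadherin (chr8:106600671-106608760), had 19.8 and 18.4 against 21.5 and 22.0, with both del/del libraries below both del/fl libraries after scaling. The median centred difference over the 26 regions was 0.04, with 17 above and 9 below 0.

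Ligands of developmental signalling were found in similar numbers at both kinds of region, 20 of 55 at short and 18 at long and no short ones. Wnt3 and Wnt9b shared 1 region with 26.6 and 22.9 against 24.6 and 24.8 tags. Bmp6, a bone morphogenetic protein (chr13:38343435-38350133), had 18.2 and 18.2 against 21.0 and 21.9, without overlap (per-million log2 −0.33 ± 0.12, SE, limma adjusted p of 0.157). Bdnf, the neurotrophin, had 10.9 and 10.5 against 13.4 and 12.7 (−0.38, limma adjusted p of 0.132). Shh, Ihh, Wnt1 and Bmp4 lay at long regions. Of receptors and inhibitors of these ligands 13 of 42 had a short region, led by Sfrp5 with 22.8 and 20.6 against 20.6 and 21.1 tags, and including Grem1, a Bmp antagonist (chr2:113754089-113761513), with 14.0 and 13.6 against 16.3 and 16.4, the del/del libraries below the del/fl libraries. Centred differences over the ligands' 19 regions were above 0 at 9 and below at 10, and over the 13 regions of receptors and inhibitors at 3 and 10.

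The developmental transcription factors near a short shared region were led by Sox18, an endothelial factor (chr2:181666977-181674587), with 20.2 and 20.2 against 18.4 and 20.9 tags. Phox2a, of noradrenergic neurons (chr7:101815636-101822578), had 16.3 and 15.8 against 17.4 and 14.2. Eomes, of intermediate progenitors (chr9:118483905-118489252), had 11.7 and 11.5 against 13.9 and 13.4, without overlap. Of the 16, 6 had a long shared region near an end as well, and 3 had their start inside a short one.

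Of the lists of cell type markers, neuronal markers had a short shared region at 10 of 31, among them Rbfox3, which encodes the NeuN antigen (chr11:118903718-118911503), with 21.0 and 22.5 against 22.8 and 21.5 tags. Neural stem cell genes had 2 of 28, Id4 with 7.91 and 6.08 against 8.41 and 6.45 and Pax6 with 6.61 and 5.76 against 6.00 and 6.45, both near the floor, and 25 of the 28 had no region of any kind. Astrocyte and oligodendrocyte markers had 1 of 17 (Sox10), microglia and blood markers 3 of 17 (Gfi1b, Hba-a1 and Tmem119), endothelial and mural markers 5 of 16, fibroblast markers 1 of 16 (Meox2), and pluripotency and germ line genes 3 of 22 (Utf1, Tdrd1 and Prdm1). None of 20 housekeeping genes had a merged region of any kind within 2500 bp.

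Imprinted genes had short shared regions at 10 of 35, including Phlda2 and Slc22a18 under 1 region (chr7:143499004-143505025) with 19.04 and 18.5 against 19.4 and 18.03 tags, and Dio3, the thyroid hormone deiodinase (chr12:110275799-110284590), with 15.7 and 14.9 against 14.1 and 13.9. After scaling to depth the groups overlapped at Dio3. At the region of Phlda2 and Slc22a18 both del/del libraries lay below both del/fl libraries after scaling. The lists were not split by allele, so these values pool both parental copies. Genes of the Polycomb complexes themselves had them near an end at 6 of 29, among them Cbx2 and Cbx8, which encode chromodomain readers of H3K27me3, and Bmi1, Pcgf2 and Pcgf3. An annotated start lay inside a short shared region at 0 of the 29. Cbx2 had 13.4 and 12.5 tags against 14.49 and 12.8, and Cbx8 12.5 and 11.04 against 13.1 and 11.1. All 6 regions had a centred difference below 0, between −0.17 and −0.01, within the middle 90% of the short shared regions. Among cell cycle inhibitors 1 of 7, Cdkn1c, had such a region, with 12.1 and 10.1 against 11.1 and 12.3.

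**Figure D5:**
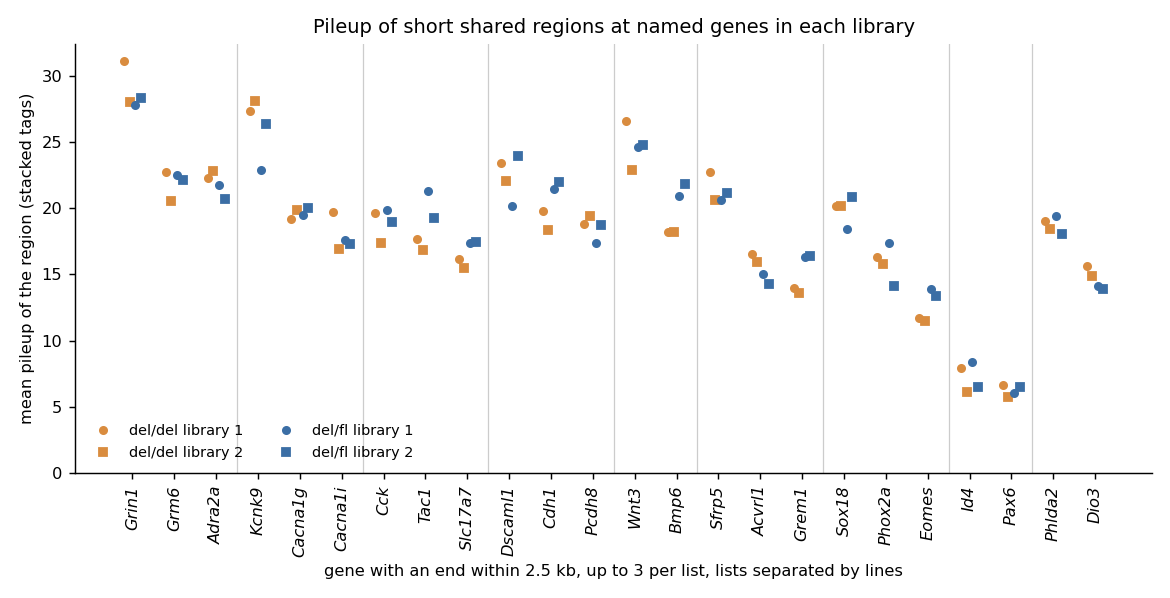
Points show the mean pileup (stacked tags, not scaled to depth) of the short shared region at each gene in the 2 del/del and 2 del/fl libraries, for up to 3 genes with the highest signal in each list drawn. Grin1 stands highest at 27.8 to 31.2 tags, and the neural stem cell genes Id4 and Pax6 lie lowest at 5.76 to 8.41.

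Promoters wholly inside the short shared regions were richer in CpG than promoters at large. Of 31396 autosomal RefSeq promoters of 300 bases (250 before and 50 after a start), 1282 from 1094 genes lay wholly inside one. They held a median of 14 CG dinucleotides against 7 over all promoters and 14 inside the long shared regions, and their median GC content was 59.7% against 53.0%. The share with an observed to expected CpG ratio of at least 0.6 and a GC content of at least 50% was 42.1%, against 34.1% of all and 45.4% in the long regions. The range within the set was wide: 99 promoters (7.72%) held 0 to 2 CG dinucleotides and 302 (23.6%) held 25 or more. The median signal over these bins ran from a per-million pileup of 0.567 to 0.720. Looked at the other way, 1.37% of all promoters with 0 to 2 CG dinucleotides lay inside a short shared region, 6.99% of those with 9 to 16 and 5.08% of those with 25 or more.

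Of 5 motifs searched by exact letters on both strands, GGGCGG, the core of the GC box, was found in 51.2% of the promoters in short shared regions, against 36.0% of all promoters and 46.2% in long shared regions. It is present in the 300-base promoters of Utf1, Wnt3, Sfrp5 and Gfi1b shown above. TATAAA was found in 9.91% against 13.6%, CAGCTG in 18.6% against 16.3%, GAGAGA in 27.1% against 24.0% and TGACGT in 4.91% against 7.57%. GGGCGG contains a CG, so its share moves with CpG content. A match describes the letters and not a bound site.

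Of 919 autosomal miRNA hairpins in the RefSeq table, 16 (1.74%) lay inside a short shared region and 18 inside a long one. Mir137, a brain miRNA (region chr3:118429961-118438151), had 9.16 and 8.75 against 10.98 and 10.3 tags, and Mir129-2 (region chr2:94238421-94245451) had 9.67 and 9.12 against 12.4 and 10.6. At both, the del/del libraries lay below the del/fl libraries. The region at Dio3 also holds Mir1247, and the Grik3 region above holds Mir692-2.

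Along the genome, the regions followed gene density. They numbered 1.11 per Mb of chromosome 3 and 3.98 per Mb of chromosome 11, and over the 19 autosomes their number per Mb correlated with that of genes (Pearson's r of 0.859, Spearman's rho of 0.912, given as a description). The median gap to the next short shared region was 72935 bp, but 910 of 5771 gaps were under 3000 bp. A long shared region lay within 10 kb of 10.8% of them and within 50 kb of 22.4%, against 5.26% and 14.8% of the other short autosomal regions.

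A small group of the regions stood apart by local background. The background, taken as pileup divided by fold enrichment, had a median of 2.099 tags over the regions, and 45 regions (0.777%) had 5 tags or more. All 8 regions with the highest pileup were among the 21 with a mean of 50 tags or more, of which 20 had such a background and none held a gene start. They include 4 stretches between chr2:98662212 and 98667362, with 182 to 318 tags, and chr9:3000021-3004871, with 288 and 260.3 against 295.5 and 319 tags. The exception, with a background of 2.46 tags, was the region in Gm34259 described above. The shortest regions were often of this kind. Of the 16 under 350 bp, 10 had a background of 5 tags or more, and their median pileup was 49.0 tags, against 7.21 among the 64 between 500 and 1000 bp. Without the 45 regions the set held 5745, of which 45.3% lay near a gene end, and the difference in mean per-million log2 pileup stayed at −0.13.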

How the data were processed

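H3K27me3 ChIP-seq peak lists of 4 libraries were analysed, and the 4 whole-cell extract samples entered as their controls. The submitters' processing notes name bcl2fastq, Bowtie 0.12.9 and the build mm10. Each library's peaks came from MACS2 2.1.0.20140616 in broad mode, with random down-sampling of the larger of treatment and control, a q-value cutoff of 0.05, at most 1 tag at a position and background windows of 1000 and 10000 bp, per the file headers. Down-sampling adds noise near the threshold. The libraries held 14064030 and 12819919 (del/del) and 13288499 and 11793402 (del/fl) tags after filtering, per the file headers. The deposited pileup is the authors' signal of stacked tags per peak. The deposited fold enrichment is the authors' ratio of pileup to local background. The q-values of peaks are deposited by the authors as −log10 and served only for a stricter list. These per-peak values are the peak caller's, with no count behind them here, so depth enters through the tag totals.

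Peaks were merged with Python 3.11.15, numpy 2.4.6 and pandas 2.3.3, tests used scipy 1.17.1, figures matplotlib 3.10.9. Cover is the percent of a region's length under peaks. Log2 per-million pileup of all 10790 shared regions and cover of all 59771 regions were fitted with limma 3.58.1 in R 4.3.3 (trend, robust, Benjamini-Hochberg), without a replicate block. Across regions, the difference between libraries 1 and 2 of one genotype correlated little with that of the other (0.037 for pileup and 0.017 for cover). This correlation does not see a shift common to a whole library, and library 2 of each genotype covered more. It therefore cannot decide whether same-numbered libraries are pairs, and numbers were not taken to pair them. Gene ends, promoters and hairpins came from RefSeq tables of GRCm38.p6, the build of mm10, and strands from the promoter table. The regions, gene lists and tests were chosen with earlier results of these data known. Named were the regions highest and lowest in pileup, longest and shortest, on either side of 10000 bp, with the widest differences in pileup or cover without overlap, farthest from genes, and up to 4 genes per list by highest pileup. Further list genes (Htr1a, Drd2, Th, Penk, Sst, Gal, Slc6a3, Slc6a4, Bdnf and the long-region genes) and 2 miRNAs were picked after their values were seen. A few list genes that the rule names are not reported here. On simulated data the pileup fit found 0, 6, 28 and 39 of 50 regions changed by 0.25, 0.5, 0.75 and 1 log2, with 2 of 10590 unchanged regions called. Merging was checked on simulated peaks. Alternatives were a stricter q-value, merging up to 3000 bp, each library left out, other scales, filters and windows, and, added after seeing the data, regions without high local background.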

Additional observations from a re-analysis of the deposited data

How the results depend on the processing

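The number of short shared regions was 572 with peaks of −log10 q of at least 5, 3550 with merging up to 3000 bp, and 6363 to 7033 when 3 libraries had to share a region. The share near a gene end was 78.7% with the stricter peaks, 53.3% with wider merging, 36.2% and 54.2% with windows of 1000 and 5000 bp, 36.0% for protein-coding genes alone, and 41.9% to 43.1% with a library left out. The difference in mean log2 pileup kept its direction under each alternative run, −0.14 to −0.11 with a library left out, −0.07 in fold enrichment, −0.03 on pileup as deposited and −0.01 after subtracting the long regions. The difference in the percent of summed length covered ran from −13.4 to −0.296 points with a library left out, while the median difference per region, −7.33 points, was 0.0246 without del/fl library 2.

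In pileup, limma called 1 region higher and 10 lower of 572 with the stricter peaks (2 and 12 of all 1048 shared autosomal regions), 3 and 11 in a fit of autosomes alone, 56 and 60 centred, 28 and 21 as deposited, 0 and 3 on the highest pileup (0 and 3 of 6645), and 8 and 79 of 819 with at least 10 tags, and 0 and 0 with a library left out, the replicate block, fold enrichment, a pseudocount of 1 tag, no trend, no robust fit, wider merging, or without high local background. In cover, it called 6 and 8 with wider merging (27 and 13 of all 30770 merged regions), 2 and 2 on the logit scale (37 and 2 of 59771), and 22 and 45 with the replicate block (591 and 90 of 59771). With a library left out it called from 0 to 89 higher and 0 to 167 lower, and of all 59771 from 1 to 17529 higher and 161 to 13576 lower. The cause of these shifts was not tested. The replicate block was run although the numbers were not taken to pair the libraries. The cover fit of autosomes alone could not be fitted. The 12 regions named for a difference in pileup were chosen for wide differences without overlap in these same values. Leaving out a library therefore could not reverse them. That each kept its direction in all 174 alternative values is no independent check. Of these values, 39 passed the threshold. Depth and the floor of 5 or 6 tags limit what can be seen at weak regions, and 2 libraries per group limit every test.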
